A study of Mus musculus with 67 samples.

Results

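Ion channels, neurotransmitter receptors and G-protein genes made up 28 of the 3905 genes that the arrays carried under a single symbol, read by 35 of 4788 such spots. Members were chosen by how their symbols begin (Kcn, Cacn, Clcn, Clic, Trpm, Chrn, Htr, Gpr, Gna, Gng and Rgs, among others), and the spots of a gene were averaged. The prefixes for sodium channels and for glutamate, GABA and purinergic receptors found no gene. They also took in Htra2, a mitochondrial serine protease and no serotonin receptor, and Kcnq1ot1, a long non-coding RNA antisense to a potassium channel gene.

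Ion channels set the membrane potential and firing of neurons, and transmitters act either on receptors that are channels themselves or on receptors coupled to G proteins. A coupled receptor loads the G-protein alpha subunit with GTP, the subunit acts on enzymes or channels, and regulators of G-protein signalling (RGS proteins) end the signal by speeding GTP hydrolysis. In cortex these families are known for setting excitability and for the slow actions of modulators such as acetylcholine.

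The arrays measured cortical RNA of 67 mice of the strain C57BL/6, each mouse on an array of its own. Mice fed ad libitum (AL) were in age groups of 1 month (17 to 44 days), 6 months (169 to 194 days), 16 months (472 to 499 days over both diets) and 24 months (673 to 743 days over both diets), with 5 males and 5 females in each. Mice on caloric restriction (CR) were 6 months (4 males and 5 females), 16 months (5 and 5) or 24 months old (3 and 5), and their food was lowered in steps from early adulthood. At 24 months all CR males were 673 days old, where AL males were 714 to 743 days old. In males of that age group, diet and age in days cannot be told apart. All were of 1 strain, and no allele or drug differed between groups. Values are z-scores, the distance of a spot from the mean of its array in SDs of that array. Differences are therefore in z units and not folds, and levels of different genes are not compared.

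Of the 28 genes, 16 (57.1%) had a mean z-score above 0 and were tested, against 42.4% of all genes with a symbol. These were Kcng1, Kcnh3, Kcnk6, Cacna1d, Clcn7, Clic4, Trpm7, Chrna5, Gpr137b, Gna14, Gnaq, Rgs2, Rgs11, Rgs12, Rgs17 and Htra2. The other 12 were Cacna2d1, Clcn3, Gna13, Gnai2, Gng3, Gpr1, Gpr108, Gpr137c, Kcnh1, Kcnq1ot1, Kcns3 and Trpm2.

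Promoter windows, the 250 bases before the annotated start in RefSeq (GRCm38.p6), were at hand for 21 members. The windows of Rgs2 (chr1:144004150-144004399, minus strand), Rgs17 (chr10:5922401-5922650, minus strand) and Cacna1d (chr14:30491157-30491406, minus strand) are shown because these genes reached an unadjusted p under 0.05 in a comparison described here. They run 5′ to 3′ with the gene, with capitals where a searched motif was found on either strand. The motifs were the GC box with the letters GGGCGG, the core of the cAMP response element with the letters TGACG, and the TATA box with the letters TATAAA.
Rgs2: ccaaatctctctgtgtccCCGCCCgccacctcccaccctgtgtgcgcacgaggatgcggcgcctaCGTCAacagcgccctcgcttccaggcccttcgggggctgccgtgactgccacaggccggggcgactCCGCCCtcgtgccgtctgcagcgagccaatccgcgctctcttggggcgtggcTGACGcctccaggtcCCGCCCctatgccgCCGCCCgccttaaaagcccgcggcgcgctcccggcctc
Rgs17: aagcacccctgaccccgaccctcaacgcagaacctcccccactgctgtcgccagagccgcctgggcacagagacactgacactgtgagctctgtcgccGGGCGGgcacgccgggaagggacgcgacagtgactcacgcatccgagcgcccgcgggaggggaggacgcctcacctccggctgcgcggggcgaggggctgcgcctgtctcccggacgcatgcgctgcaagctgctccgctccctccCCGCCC
Cacna1d: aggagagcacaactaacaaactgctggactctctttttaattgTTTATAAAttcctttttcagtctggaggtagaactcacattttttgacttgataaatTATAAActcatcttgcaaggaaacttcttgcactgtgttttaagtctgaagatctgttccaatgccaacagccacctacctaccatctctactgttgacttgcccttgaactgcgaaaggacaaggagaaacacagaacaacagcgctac
The Rgs2 and Rgs17 windows were each 72.4% G and C and the Cacna1d window 39.6%, against medians of 60.4% over the 21 members and 52.0% over 27025 genes. A GC box was present in 12 member windows (57.1%) and in 32.9% of all windows. The core TGACG was present in 6 (28.6%; all windows 17.9%), the full element TGACGTCA, which holds that core, in 0 (all windows 1.6%), and TATAAA in 3 (14.3%; all windows 13.0%). A match describes the letters of the window only.

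Arrays 46 to 67 (22 arrays) stood apart from arrays 1 to 45, and each of the 14 groups of age, diet and sex had arrays in both sets, so the set was a term of the fit. The array of AL female replicate 5 at 24 months had a median correlation of 0.783 with the other arrays, where the next lowest was 0.885. AL male replicate 2 at 24 months carries a description that belongs to a 1-month mouse, and its title and age label were followed. Named values that cross an unadjusted p of 0.05 without either array are given both ways. Of markers of cortical cells, those of neurons (Snap25, Stmn3, Tubb3, Uchl1), astrocytes (Aldoc, Glul, Cst3), oligodendrocytes (Car2, Fth1) and endothelium (Pecam1) had mean z-scores above 0. Cdh5, also an endothelial marker, had a mean of -0.582 and was not tested. None of the listed microglial markers was on the array under a single symbol.

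With limma and Benjamini-Hochberg adjustment over 3609 features, 0 members and 0 features reached an adjusted p under 0.05 in any of 13 comparisons of age, diet and sex. Members are therefore described by size, standard error and adjusted p, and counted at an unadjusted p under 0.05 beside the share of all features that reached it. In the 16 to 24 month AL comparison the 95% interval reached 0.0784 to 0.188 either side of the difference among members, with a median of 0.118.

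**Figure D1:**
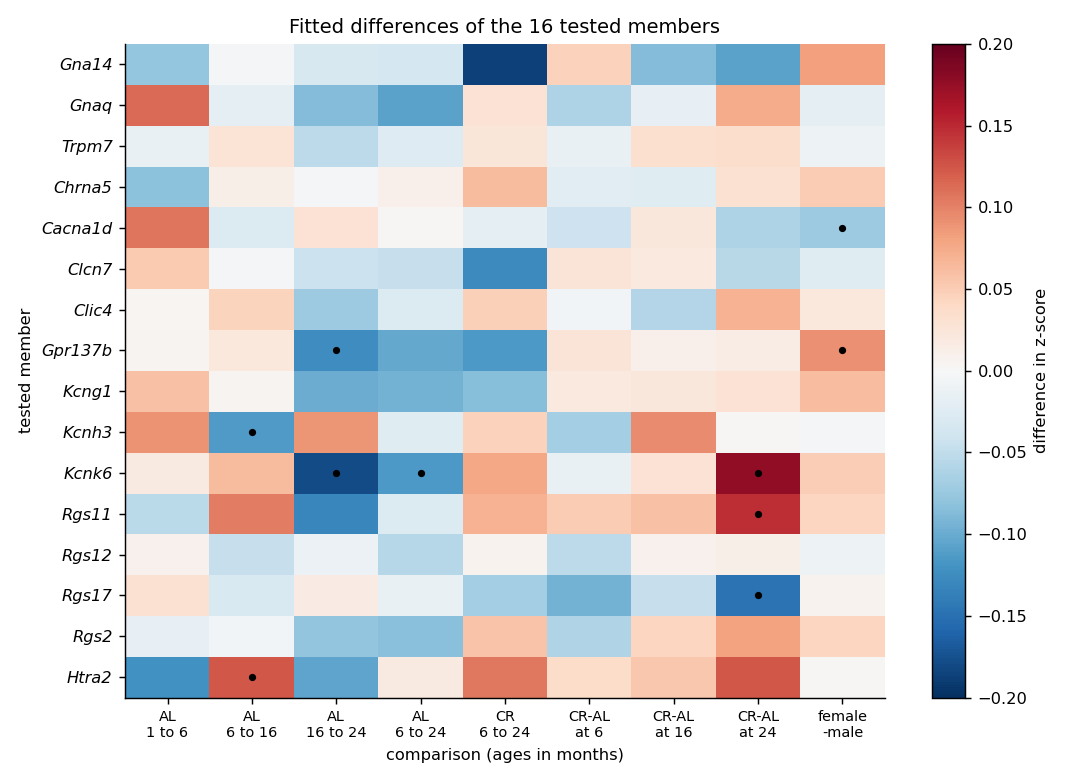
Fitted difference in z-score (colour scale from -0.2 to 0.2) of the 16 tested members in 9 comparisons; dots mark an unadjusted p under 0.05. Kcnk6 was lower by 0.179 from 16 to 24 months under AL and higher by 0.177 under CR at 24 months, and no cell passed adjustment.

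Kcnk6, which encodes a potassium channel of the tandem-pore family that carries background current, had the smallest unadjusted p of the tested members. AL males of 16 months had z-scores of 1.46, 1.31, 1.62, 1.4 and 1.41, and AL females 1.54, 1.7, 1.61, 1.52 and 1.45. AL males of 24 months had 1.43, 1.3, 1.33, 1.37 and 1.07, and AL females 1.37, 1.35, 1.54, 1.42 and 1.05. The older mice lay lower on average in both sexes, the groups overlapped, and the lowest values belonged to arrays 66 and 67. The difference was -0.179 ± 0.0521 (SE; 10 against 10 mice; 95% interval -0.283 to -0.0749; adjusted p = 0.249). It was -0.218 in females and -0.14 in males, and -0.153 within arrays 1 to 45 and -0.217 within arrays 46 to 67. Without AL female replicate 5 it was -0.147 (adjusted p = 0.602; unadjusted p under 0.05).

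From 6 to 24 months under AL, Kcnk6 differed by -0.115 ± 0.0522 (adjusted p = 0.537), and without AL female replicate 5 by -0.0852 (adjusted p = 0.996; unadjusted p above 0.05). Its AL means were 1.44 ± 0.0871 (SD) at 1 month, 1.45 ± 0.156 at 6 months, 1.5 ± 0.119 at 16 months and 1.32 ± 0.154 at 24 months. The first 3 of these ages differed by less than the spread between mice.

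CR males of 24 months had Kcnk6 z-scores of 1.49, 1.54 and 1.41, and CR females 1.66, 1.37, 1.61, 1.46 and 1.53. No CR mouse lay below 1.37, and the ranges of CR and AL mice overlapped. CR minus AL was 0.177 ± 0.0563 (8 against 10 mice; 95% interval 0.0647 to 0.29; adjusted p = 0.224), with 0.18 in females and 0.174 in males. The difference was 0.144 within arrays 1 to 45, 0.225 within arrays 46 to 67, and 0.146 (adjusted p = 0.629; unadjusted p under 0.05) without AL female replicate 5. CR means of Kcnk6 were 1.44 ± 0.0853 at 6 months and 1.53 ± 0.0896 at 16 months. The CR effect at 24 months exceeded that at 6 months by 0.192 ± 0.0778 (adjusted p = 0.43), and by 0.16 (adjusted p = 0.775; unadjusted p under 0.05) without that array. The age and diet comparisons share the AL mice of 24 months, so their opposite signs are not independent.

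**Figure D2:**
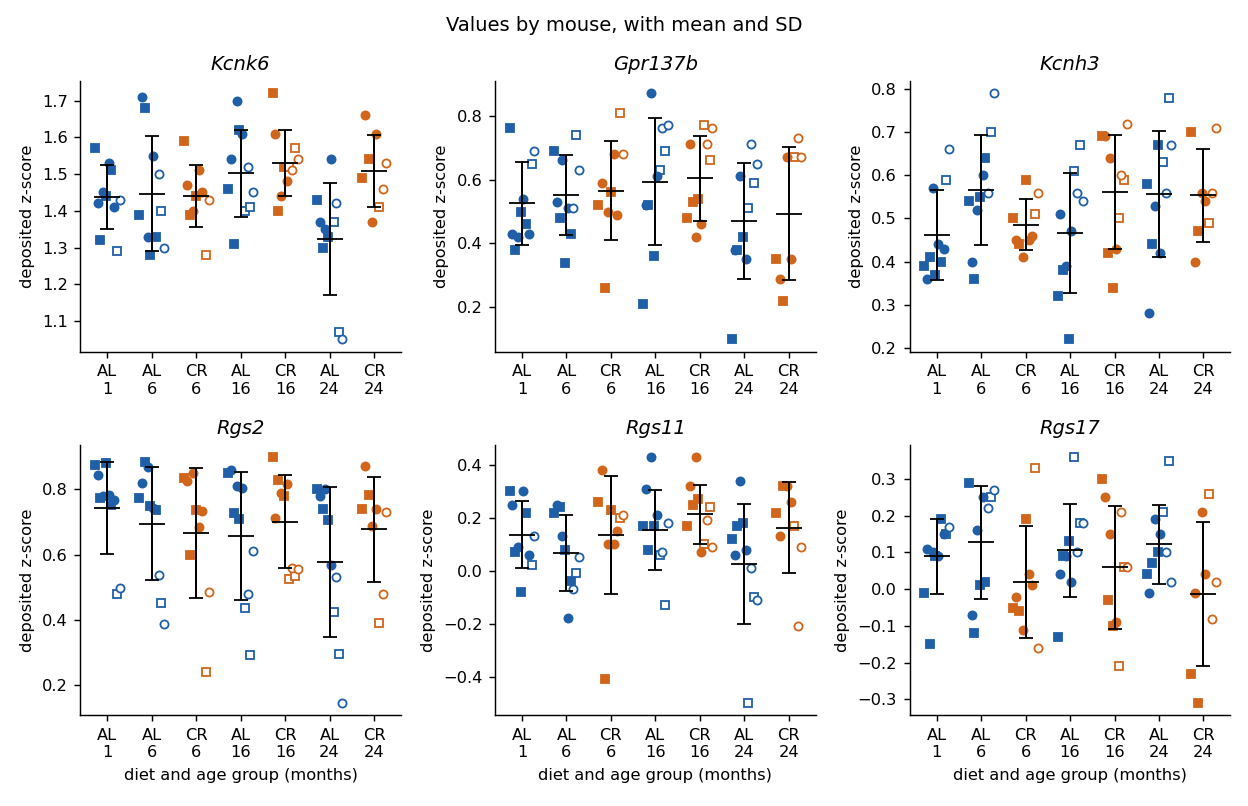
z-score of each mouse for Kcnk6, Gpr137b, Kcnh3, Rgs2, Rgs11 and Rgs17 in the 7 groups of diet and age, with mean and SD as bars; blue is AL, orange CR, squares males, circles females, open symbols arrays 46 to 67. AL mice of 24 months reach down to 1.05 for Kcnk6, where no CR mouse of that age lies below 1.37. The lowest of these AL values belong to arrays 66 and 67.

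Kcnh3, a voltage-gated potassium channel gene of the ether-a-go-go family, was lower at 16 than at 6 months under AL. At 6 months it ran from 0.36 to 0.79 with a median of 0.555, and at 16 months from 0.22 to 0.67 with a median of 0.49, so the ages overlapped. The difference was -0.113 ± 0.0478 (adjusted p = 0.9999), with -0.133 and -0.0925 within the array sets. From 16 to 24 months Kcnh3 differed by 0.089 ± 0.0477 (adjusted p = 0.365), and without AL male replicate 2 by 0.105 (adjusted p = 0.384; unadjusted p under 0.05). By sex, that age difference over all arrays was -0.002 in females and 0.18 in males. CR minus AL at 16 months was 0.095 ± 0.0477 (adjusted p = 1), with 0.122 in females and 0.068 in males. Over the processing alternatives listed below, single arrays left out aside, this CR difference ran from 0.0075 to 0.153. Without AL female replicate 5 of 24 months it was 0.095 (adjusted p = 1; unadjusted p under 0.05), and without AL male replicate 2 of that age 0.095 (adjusted p = 1; unadjusted p under 0.05). Kcng1, a subunit that modifies other voltage-gated channels, had its smallest p between the sexes, at 0.0617 ± 0.0381 (adjusted p = 0.672).

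Among the other channels, Cacna1d, the pore subunit of an L-type calcium channel, was lower in females of 6 to 24 months. Its z-score was 0.263 ± 0.139, from -0.09 to 0.51 with a median of 0.255 in 30 females and 0.338 ± 0.0978, from 0.17 to 0.52 with a median of 0.35 in 27 males, with wide overlap. The difference was -0.0723 ± 0.036 (adjusted p = 0.577), with -0.0694 and -0.0642 within the array sets, and without AL female replicate 5 it was -0.0691 (adjusted p = 0.596; unadjusted p above 0.05). Without AL male replicate 2 Cacna1d gave -0.0712 (adjusted p = 0.642; unadjusted p above 0.05). Clcn7, the chloride-proton exchanger of lysosomes, differed by -0.127 ± 0.0652 from 6 to 24 months under CR (adjusted p = 0.993), with -0.0101 in females and -0.244 in males. Leaving out single arrays moved the Clcn7 value over -0.173 to -0.0438, the end nearest to 0 being that without CR male replicate 2 of 24 months. Clic4, an intracellular chloride channel protein, differed by -0.058 ± 0.0577 for CR at 16 months (adjusted p = 1). Trpm7, a cation channel fused to a kinase, differed by -0.0522 ± 0.0393 from 16 to 24 months under AL (adjusted p = 0.516).

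Of the receptors, Gpr137b, a membrane protein of lysosomes, reached an unadjusted p under 0.05 in 2 comparisons. Under AL it ran from 0.21 to 0.87 with a median of 0.62 at 16 months and from 0.1 to 0.71 with a median of 0.465 at 24 months. The older mice were lower on average, with broad overlap, and the difference was -0.124 ± 0.0552 (adjusted p = 0.292). Between the sexes, its z-score was 0.593 ± 0.144, from 0.29 to 0.87 with a median of 0.62 in females and 0.498 ± 0.182, from 0.1 to 0.81 with a median of 0.52 in males. Females were higher by 0.091 ± 0.0331 (adjusted p = 0.434), with 0.136 within arrays 1 to 45 and -0.0025 within arrays 46 to 67. Chrna5, a subunit of nicotinic acetylcholine receptors, had its smallest p between the sexes, at 0.0504 ± 0.0402 (adjusted p = 0.757).

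The alpha subunits Gnaq and Gna14 both belong to the Gq class that activates phospholipase C, and their genes are neighbours on chromosome 19. Gnaq had AL means of 1.03 ± 0.187 at 1 month, 1.16 ± 0.184 at 6 months, 1.16 ± 0.164 at 16 months and 1.07 ± 0.13 at 24 months. Its differences of 0.114 ± 0.0634 from 1 to 6 months (adjusted p = 0.9998) and -0.107 ± 0.0634 from 6 to 24 months (adjusted p = 0.678) did not pass adjustment. Gna14 differed by -0.187 ± 0.104 from 6 to 24 months under CR (adjusted p = 0.993). Its AL difference over that interval was 0.126 in females and -0.196 in males, and females minus males was 0.322 ± 0.188 (adjusted p = 0.609).

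Rgs17, whose protein acts on the inhibitory class of alpha subunits, was lower under CR at 24 months. AL mice ran from -0.01 to 0.35 with a median of 0.1, and CR mice from -0.31 to 0.26 with a median of 0.005, with overlap. The difference was -0.148 ± 0.0664 (adjusted p = 0.41), with -0.054 in females and -0.241 in males, and -0.185 and -0.055 within the array sets. Leaving out single arrays moved it over -0.226 to -0.101, with an unadjusted p by limma of up to 0.161. The end farthest from 0 was that without CR male replicate 3. CR males of that age were all 673 days old and AL males 714 to 743 days, which holds for Rgs11 as well. Rgs11, of the RGS class that binds a special beta subunit, ran from -0.5 to 0.34 with a median of 0.07 under AL and from -0.21 to 0.32 with a median of 0.195 under CR at that age. CR was higher by 0.147 ± 0.0731 (adjusted p = 0.452), with 0.042 in females and 0.253 in males. Without AL female replicate 5 it was 0.135 (adjusted p = 0.776; unadjusted p above 0.05), and without AL male replicate 4 it was 0.0983. From 16 to 24 months under AL, Rgs11 differed by -0.13 ± 0.0677 (adjusted p = 0.353), and without AL male replicate 2 by -0.147 (adjusted p = 0.389; unadjusted p under 0.05).

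Rgs2, whose protein acts on Gq alpha subunits, had AL means of 0.743 ± 0.142, 0.695 ± 0.175, 0.658 ± 0.197 and 0.578 ± 0.231 at 1, 6, 16 and 24 months, before the array set was taken into account. It was 0.78 ± 0.0711 on arrays 1 to 45 and 0.457 ± 0.13 on arrays 46 to 67. With the set in the fit, Rgs2 differed by -0.0843 ± 0.0438 from 6 to 24 months (adjusted p = 0.622). The CR effect at 24 months exceeded that at 6 months by 0.141 ± 0.0653 (adjusted p = 0.478), and without AL female replicate 5 by 0.111 (adjusted p = 0.867; unadjusted p above 0.05). Between the sexes Rgs2 differed by 0.0424 ± 0.0262 (adjusted p = 0.672), and without that array by 0.0517 (adjusted p = 0.561; unadjusted p under 0.05). Rgs12, a large RGS protein with several binding domains, differed for CR at 6 months by -0.0521 ± 0.0511 (adjusted p = 1).

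Htra2, the protease taken in by its symbol, was higher at 16 than at 6 months under AL by 0.124 ± 0.0616 (adjusted p = 0.9999). It ran from 0.65 to 1.26 with a median of 0.93 at 6 months and from 0.91 to 1.21 with a median of 1.11 at 16 months. CR minus AL at 24 months was 0.124 ± 0.0665 (adjusted p = 0.476), and the 1 to 6 month difference was -0.12 ± 0.0616 (adjusted p = 0.9998).

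**Figure D3:**
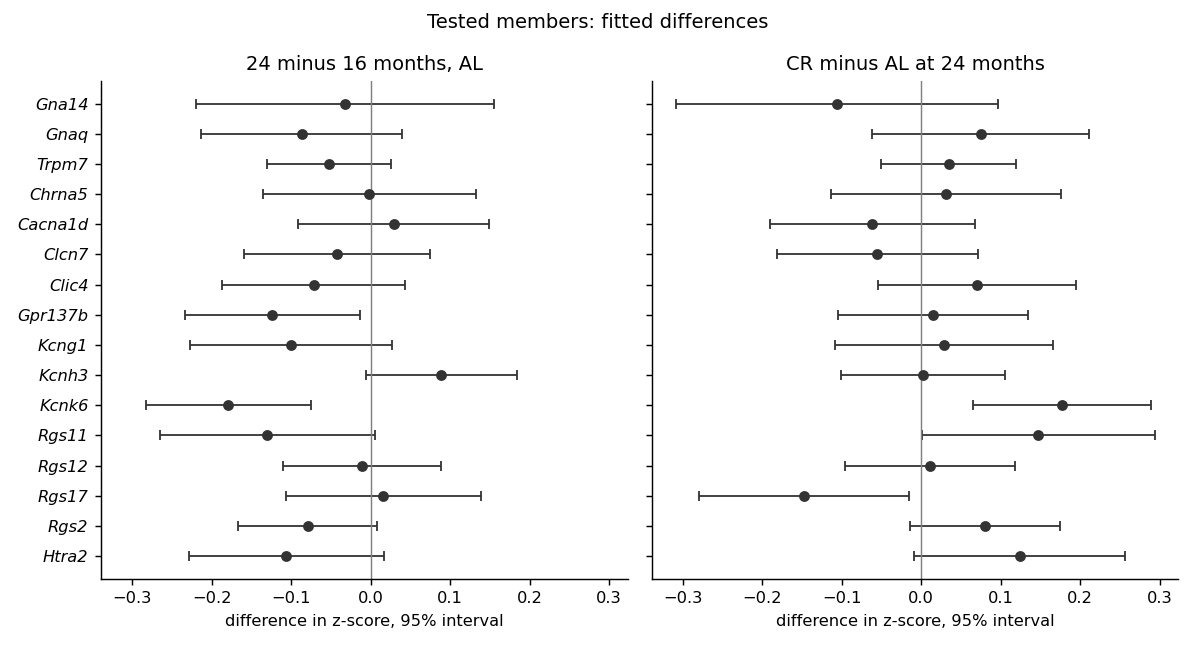
Fitted difference in z-score with its 95% interval for the 16 tested members, for 24 minus 16 months under AL and for CR minus AL at 24 months. Intervals leave out 0 for Kcnk6 and Gpr137b in the first and for Kcnk6, Rgs11 and Rgs17 in the second, before adjustment.

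Counted over the members, 2 of 16 reached an unadjusted p under 0.05 from 6 to 16 months under AL (Kcnh3 and Htra2), where 2.58% of features did. From 16 to 24 months 2 did (Kcnk6 and Gpr137b; 15% of features), and 13 of 16 were lower, with a median difference of -0.0621. Over all features 58.3% were lower, with a median of -0.019. From 6 to 24 months 1 did under AL (Kcnk6; 8.12% of features) and 0 under CR (3.99%). For CR against AL the count was 0 at 6 months (3.85% of features), 0 at 16 months (1.33%) and 3 at 24 months (11.1%), where 12 of 16 members were higher with a median of 0.03. Over all features 43.4% were lower in that comparison, with a median of 0.0163.

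Between the sexes 2 members did so (Gpr137b and Cacna1d; 8.53% of features), and from 1 to 6 months 0 did (4.1%). Among 1-month mice, 5 of 33 to 44 days were set against 5 of 17 to 21 days (older minus younger), with 0 members (1.86% of features). Cacna1d was nearest, lower in the older mice at -0.135 ± 0.0869 (adjusted p = 0.998). That value was -0.0424 without AL female replicate 4 of 1 month and -0.216 without female replicate 5, the latter at an unadjusted p under 0.05. For the CR effect at 24 against 6 months the count was 2 (Kcnk6 and Rgs2; 9.78%), for the CR effect in females against males 0 (4.63%), and for the 6 to 24 month AL difference in females against males 0 (6.95%). Without AL female replicate 5 the counts were 2 from 16 to 24 months, 0 from 6 to 24 months, 2 for CR at 24 months and 1 for the CR effect at 24 against 6 months. Between the sexes the count stayed at 2 without that array, with Rgs2 in place of Cacna1d. Without AL male replicate 2 they were 4 from 16 to 24 months and 1 between the sexes. For CR at 16 months the count was 1 (Kcnh3) without either array. With single arrays left out, the share of features was 7.86% to 19.4% from 16 to 24 months under AL. It was 3.9% to 11.8% from 6 to 24 months under AL and 6.42% to 14.9% for CR at 24 months. For the CR effect at 24 against 6 months it was 5.87% to 11.9%. Between the sexes it was 5.31% to 12.2%, and for CR at 16 months 0.637% to 2.44%. The CR effect in females minus males was -0.0682 ± 0.0624 for Kcnk6, 0.0786 ± 0.0804 for Chrna5 and -0.0678 ± 0.0737 for Htra2 (adjusted p = 0.947 for each). The 6 to 24 month AL difference in females minus males was 0.15 ± 0.111 for Gpr137b and -0.117 ± 0.0956 for Kcnh3.

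Members also differed between the array sets. Between arrays 46 to 67 and arrays 1 to 45, 15 of 16 tested members passed an adjusted p of 0.05 by limma (7 higher and 8 lower), where 72.4% of features did (34.8% higher and 37.6% lower). Chrna5 was 0.46 ± 0.155 on arrays 1 to 45 and -0.816 ± 0.138 on arrays 46 to 67, with no overlap between the sets, and it passed the filter on low values only through arrays 1 to 45. Gna14 differed by 0.691, Clic4 by 0.47, Kcng1 by 0.398 and Rgs2 by -0.324. Cacna1d, at -0.0533, was the member that did not pass. The median size of the shift was 0.141 over tested members and 0.185 over all features.

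**Figure D4:**
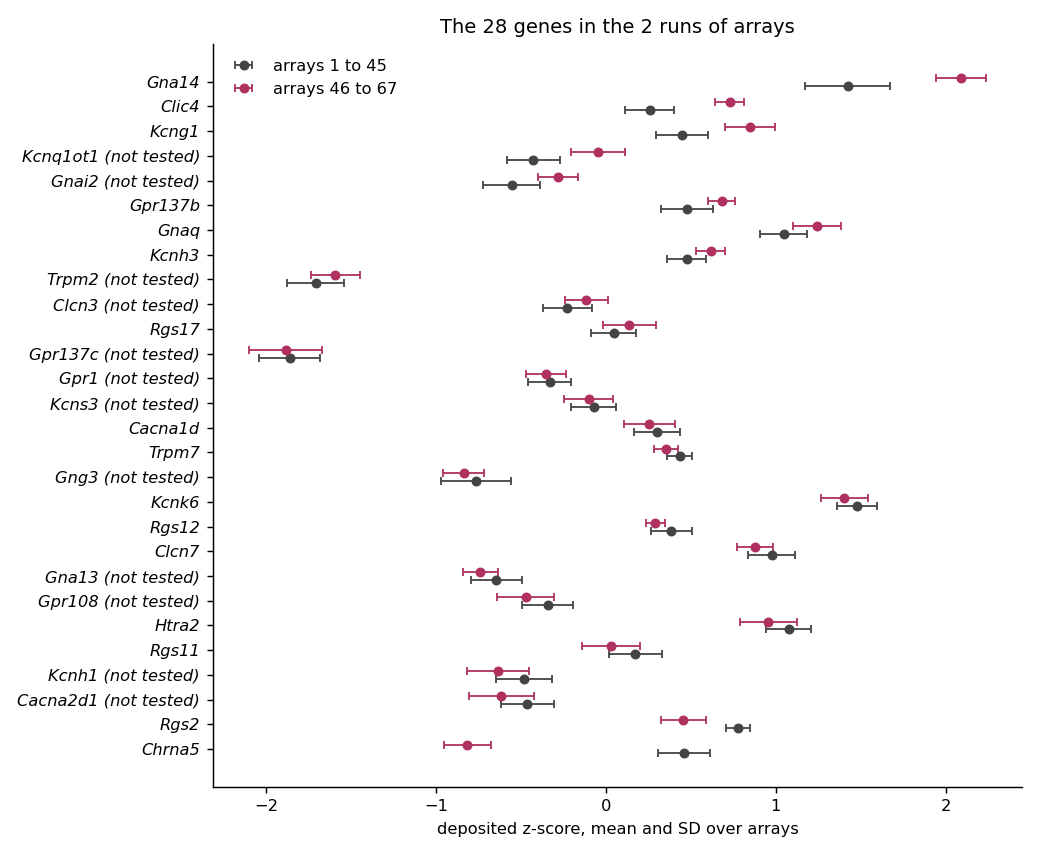
Mean z-score and SD of each of the 28 genes on arrays 1 to 45 (grey) and arrays 46 to 67 (red). Chrna5 lies at 0.46 in the first set and at -0.816 in the second, and Gna14 at 1.42 and 2.09.

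Genes with several spots allowed a look at agreement within a gene. The Rgs2 spots had mean z-scores of 0.442, -0.321 and 1.9, the Trpm7 spots 1.33, -0.374, 1.05 and -0.374, the Rgs12 spots -0.238 and 0.948, and the Gpr1 spots -1.24 and 0.56. After removal of group and array set, the 11 pairs of spots for 1 gene had Pearson correlations from -0.281 to 0.385 over 67 arrays, with a median of -0.154. By permutation test with adjustment over the 11 pairs, 2 pairs passed by Pearson and 4 by Spearman. Both of the former were Trpm7 pairs. The first had r = 0.385 (permutation p = 0.0013, adjusted p = 0.0143) and rho = 0.315 (permutation p = 0.00919, adjusted p = 0.0337), and r = 0.344 without the 2 farthest arrays. The second had r = 0.326 (permutation p = 0.00717, adjusted p = 0.0394) and rho = 0.331 (permutation p = 0.00616, adjusted p = 0.0337), and r = 0.275 without the 2 farthest. Within arrays 1 to 45 and 46 to 67 the first gave 0.442 and 0.296, and the second 0.429 and -0.0273. By Spearman the Gpr1 pair passed as well (rho = 0.321, permutation p = 0.00818, adjusted p = 0.0337). So did a further Trpm7 pair whose spots ran against each other (rho = -0.301, permutation p = 0.0137, adjusted p = 0.0377), with r = -0.281.

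The Rgs12 spots differed in opposite directions, by 0.0818 and -0.173 (95% interval -0.3 to -0.0447) from 6 to 16 months, and by -0.141 and 0.157 (95% interval 0.0295 to 0.285) from 1 to 6 months. For Rgs2, the CR effect at 24 against 6 months was positive at all 3 spots (0.156, 0.162 and 0.104). The 95% interval of each spot held 0, and 39% of all features were lower in that comparison. The CR effect in females minus males was 0.258, -0.0663 and -0.135 at the same Rgs2 spots. Trpm7 from 16 to 24 months was -0.126 (95% interval -0.245 to -0.00678) at one spot and 0.02, -0.039 and -0.064 at the others.

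**Figure D5:**
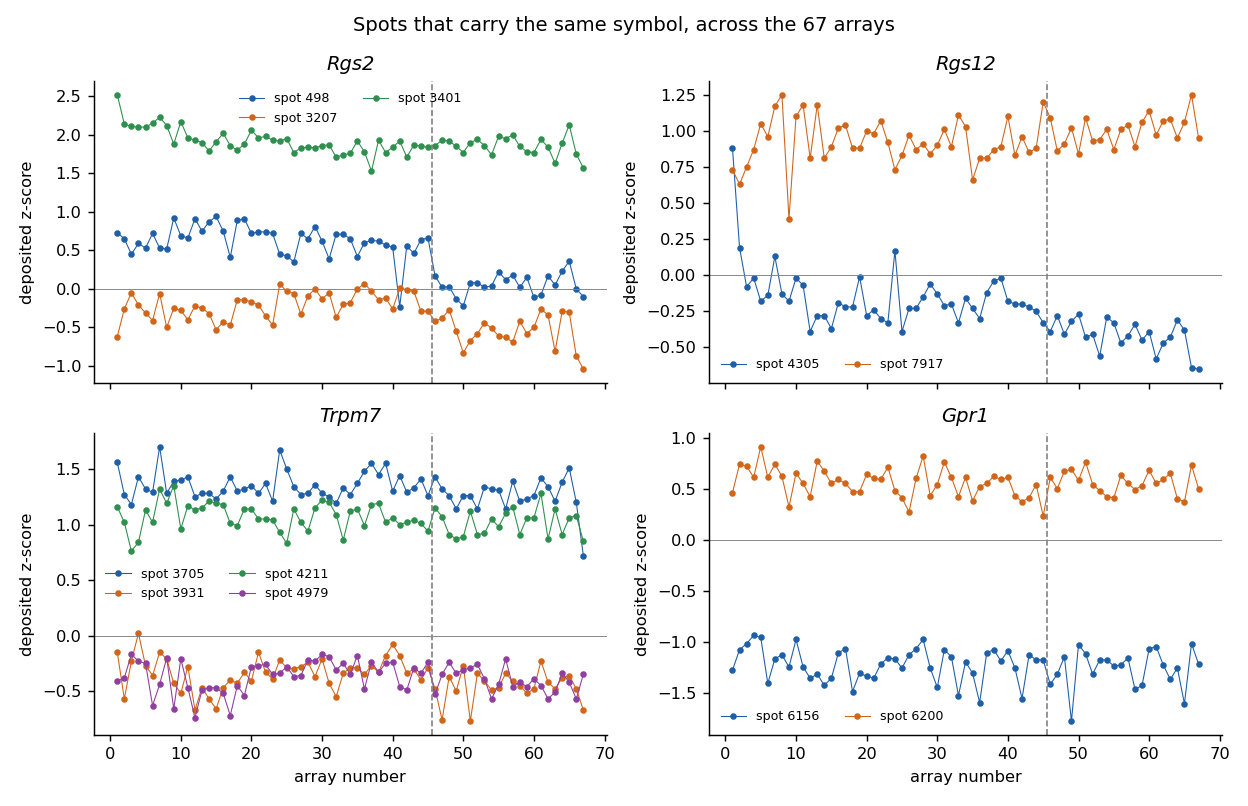
z-score of each spot of Rgs2, Rgs12, Trpm7 and Gpr1 along the array number, with a dashed line after array 45. Spots of 1 gene lie at different z-scores, from -1.24 to 0.56 on average for Gpr1.

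The 12 members with a mean z-score at or below 0 were fitted with all 7565 features, and 0 reached an adjusted p under 0.05 in limma. Unadjusted, 0 to 2 of the 12 were under 0.05 in each comparison, where 1.76% to 13.2% of all features were, and the following were picked after their values were seen. Kcnq1ot1 was -0.233 ± 0.243, from -0.7 to 0.3 with a median of -0.305 in females and -0.377 ± 0.229, from -0.82 to 0.02 with a median of -0.35 in males. Females were higher by 0.137 ± 0.0349 (adjusted p = 0.331), with 0.136 and 0.122 within the array sets. Trpm2, a calcium-permeable channel gated by ADP-ribose, ran from -1.99 to -1.48 with a median of -1.8 at 6 months and from -1.9 to -1.31 with a median of -1.53 at 24 months under AL. The difference was 0.228 ± 0.0655 (adjusted p = 0.526), with 0.227 and 0.188 within the sets.

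Gng3, a neuronal gamma subunit, was higher at 16 than at 6 months under AL by 0.205 ± 0.071 (adjusted p = 1). AL females of 16 months had Gng3 z-scores of -0.6, 0.15, -0.12, -0.81 and -0.74, and AL males -0.68, -0.91, -0.81, -1.01 and -0.79. Female replicates 2 and 3 stood above the rest. Within arrays 1 to 45 the difference was 0.356, and within arrays 46 to 67 it was -0.06.

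The median SD of the tested members was 0.109 at 1 month, 0.126 at 6 months, 0.118 at 16 months and 0.13 at 24 months, against 0.119, 0.121, 0.131 and 0.144 over all features. The SD at 24 months was above that at 6 months in 11 of 16 members. That count was not made over all features, whose median SD also rose, so it is not read as particular to the members.

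Cell type markers are given for the comparisons from 16 to 24 months under AL and for CR at 24 months. From 16 to 24 months under AL, 3 of 4 tested neuronal markers were lower, which were Snap25 (-0.125 ± 0.0685, adjusted p = 0.373), Stmn3 (-0.213 ± 0.0758, adjusted p = 0.249) and Uchl1 (-0.118 ± 0.0524, adjusted p = 0.292), while Tubb3 differed by 0.004. Of 3 astrocyte markers 1 was higher, Glul (0.124 ± 0.0534, adjusted p = 0.281), beside Aldoc at -0.081 and Cst3 at -0.007. Of 2 oligodendrocyte markers 1 was higher, Fth1 (0.138 ± 0.0505, adjusted p = 0.249), beside Car2 at -0.031. Pecam1 of endothelium differed by 0.021, and no marker passed adjustment. Over all features 58.3% were lower from 16 to 24 months. For CR at 24 months 3 of 4 neuronal markers were higher, 1 of them at an unadjusted p under 0.05. Of 3 astrocyte markers 1 was higher and 2 lower, 1 of the latter at an unadjusted p under 0.05. Of 2 oligodendrocyte markers 1 was higher and 1 lower, Pecam1 was higher, and no marker passed adjustment. Of all features 43.4% were lower in that comparison and 11.1% reached that unadjusted p. The 4 neuronal markers summed from 3.92 to 5.04 in AL mice of 16 months, from 2.17 to 4.61 in AL mice of 24 months and from 3.92 to 4.62 in CR mice of 24 months. The lowest sum was that of AL female replicate 5, and the AL mice of 24 months started at 3.82 without it. The part of these markers in the differences of the members was not tested. In whole cortex, fewer cells of a type and less RNA per cell cannot be told apart.

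Genes that act beside the members (scaffolds, second-messenger and transmitter enzymes) were 14 tested of 24 on the array. From 16 to 24 months under AL, 58.3% of all features were lower and 15% had an unadjusted p under 0.05. Of the 14 genes, 6 were higher and 8 lower, of which 1 and 2 reached that unadjusted p, and 0 passed adjustment. The higher one was Glul, which makes glutamine from glutamate, and it differed by 0.159 ± 0.0534 from 6 to 24 months (adjusted p = 0.498). The lower ones were Nsf, an ATPase of membrane fusion (-0.121 ± 0.0519, adjusted p = 0.281), and Adcy7, an adenylyl cyclase (-0.133 ± 0.0621, adjusted p = 0.304). Without AL male replicate 2 Adcy7 gave -0.12 (adjusted p = 0.433; unadjusted p above 0.05), and without AL male replicate 3 of 16 months -0.0873. Pde2a, a phosphodiesterase of cyclic nucleotides, differed by -0.1 ± 0.0505 (adjusted p = 0.336). For CR at 24 months 11 of the 14 were higher and 3 lower, where 43.4% of all features were lower.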

How the data were processed

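Radiolabelled cDNA from each cortex was hybridised to a cDNA filter array of 8448 spots. The deposited score of a spot is a z-score, made by the authors by z transformation of its intensity within an array. Whether intensities were logged first is not given in the sources used here. Spots with the same single symbol were averaged, and the 212 spots with several symbols and 3448 with none stayed separate, giving 7565 features.

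Members and gene lists were chosen with earlier results of these data known. Features with a mean z-score above 0 (3609) were fitted with limma 3.58.1 in R 4.3.3 (group means of 14 groups and a term for arrays 46 to 67, two-sided, Benjamini-Hochberg threshold 0.05, 95% intervals). The number of arrays limits the precision. The labels give 1 mouse per array and no litter or cage. Named genes were the 4 tested members of smallest p in a comparison (3 in an interaction), the smallest of each family, genes with several spots, and up to 4 neighbours in the pathway list. Spot pairs used 100000 permutations. The code was tested on simulated data. Alternatives were no array set term, each set alone, the 57 adult arrays, no filter, single spots, quantile normalization, centring by spot class, array weights, a trended robust prior, a z-ratio rule after the study's methods, leaving out each array and, chosen after seeing the data, the 5 rounds of array numbers as a block. Motifs were searched in RefSeq promoter windows, and all 28 members matched RefSeq.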

Additional observations from a re-analysis of the deposited data

Results flagged for a closer look

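Among 208 member groups of 4 or 5 mice, 17 held a lowest or highest mouse far from the rest of its group, on 12 arrays. The threshold was Dixon's 95% critical value, at which chance sets about 1 in 20 groups apart, and the array set was not removed beforehand. Of the 17, the following lie on arrays 46 to 67, and all but the Gnaq value come from the only array of their group in that set. Chrna5 in AL females of 1 month was -0.71 in replicate 5, against 0.32 to 0.51 in the others. Chrna5 in AL males of 6 months was -0.91 in replicate 5, against 0.22 to 0.59 in the others. Chrna5 in CR females of 6 months was -0.97 in replicate 5, against 0.37 to 0.67 in the others. Chrna5 in CR males of 6 months was -1.1 in replicate 4, against 0.29 to 0.51 in the others. Clic4 in CR females of 6 months was 0.85 in replicate 5, against 0.21 to 0.35 in the others. Clic4 in CR males of 6 months was 0.72 in replicate 4, against 0.16 to 0.22 in the others. Gnaq in AL males of 24 months was 1.37 in replicate 4, against 0.97 to 1.06 in the others. Kcng1 in AL females of 1 month was 0.88 in replicate 5, against 0.45 to 0.53 in the others. Kcnh3 in AL males of 1 month was 0.59 in replicate 5, against 0.37 to 0.41 in the others. Rgs2 in AL females of 1 month was 0.497 in replicate 5, against 0.767 to 0.843 in the others.

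The remaining values lie on arrays 1 to 45. Cacna1d in AL females of 6 months was -0.09 in replicate 1, against 0.34 to 0.43 in the others. Clcn7 in CR males of 16 months was 1.24 in replicate 1, against 0.85 to 0.92 in the others. Htra2 in AL males of 6 months was 1.26 in replicate 1, against 0.82 to 0.93 in the others. Htra2 in CR males of 16 months was 1.48 in replicate 1, against 1.07 to 1.14 in the others. Rgs11 in CR males of 6 months was -0.41 in replicate 2, against 0.2 to 0.26 in the others. Rgs12 in AL males of 16 months was 0.105 in replicate 1, against 0.295 to 0.345 in the others. Rgs12 in AL males of 1 month was 0.805 in replicate 1, against 0.26 to 0.39 in the others.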

How the results depend on the processing

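The count of members past an adjusted p of 0.05 was 0 in each of the 13 comparisons under every limma alternative, from 0 to 0 when each array was left out in turn. Over all features some alternatives passed a few. Array weights gave 11 of 3609 between the sexes, 5 for CR at 24 months and 5 from 6 to 24 months under CR. Quantile normalization gave 3 of 3611 for CR at 24 months. Without the filter 3 of 7565 passed for the CR effect at 24 against 6 months. Leaving out single arrays gave up to 4 for CR at 24 months. Under the z-ratio rule, which uses unadjusted p, it was 1 from 16 to 24 months under AL (Kcnk6; 1.97% of features), 1 for CR at 24 months (Kcnk6; 2.25%) and 1 for females against males (Gpr137b; 2.5%). Leaving out single arrays, the members at an unadjusted p under 0.05 numbered 0 to 2 from 6 to 16 months (1.61% to 4.1% of features), 1 to 4 from 16 to 24 months (7.86% to 19.4%), 0 to 3 from 6 to 24 months (3.9% to 11.8%), 0 to 3 in that interval under CR (2.86% to 5.6%), 1 to 4 for CR at 24 months (6.42% to 14.9%), 1 to 2 between the sexes (5.31% to 12.2%) and 0 to 3 from 1 to 6 months (2.55% to 5.95%), and Kcnk6 ranged over -0.2 to -0.147 from 16 to 24 months and 0.146 to 0.201 for CR at 24 months. Within arrays 46 to 67 alone, the sex difference was -0.0025 for Gpr137b and -0.0525 for Kcng1, and the CR effect in females minus males was 0.04 for Kcnk6, all opposite in sign to the fit of all arrays. Without the array set term, Kcng1 at 33 to 44 days minus 17 to 21 days was 0.0675, also opposite. That comparison was unbalanced over the array sets, with 2 older mice and 0 younger ones on arrays 46 to 67. Kcng1 differed by 0.398 between the sets. The cause of these changes of sign was not tested. The 17 to 21 day comparison could not be fitted within arrays 46 to 67 or the adult arrays, and the z-ratio rule was not run for it or for the interactions. Array numbers ran through the groups in 5 rounds, which the labels do not call a batch. With the rounds as a block beside the array set, chosen after seeing the data, 0 members passed adjustment. Deviations from group and set correlated at a median of 0.0495 between arrays of a round and -0.0292 between rounds, and 34 of 67 arrays correlated best with their own round. With this replicate block Kcnk6 was -0.179 from 16 to 24 months and 0.174 for CR at 24 months. At an unadjusted p under 0.05 the block left 1 member from 6 to 16 months (Kcnh3; 2.33% of features), and gave 2 from 6 to 24 months (Kcnk6 and Rgs2; 10.6%), 1 under CR (Clcn7; 5.1%), 1 for CR at 16 months (Kcnh3; 1.66%), 3 from 1 to 6 months (Gnaq, Htra2 and Kcnh3; 5.24%) and 1 for the AL age difference between the sexes (Gna14; 6.26%). For CR at 24 months it left 2, Kcnk6 and Rgs17, where 12.2% of features reached that p. The number of arrays limits what can be told apart, most of all for Gna14, with the widest intervals.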
